A study of Mus musculus with 16 samples.

Results

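The genes described here are 7 that are used to mark astrocytes in the mature brain: Gfap, Aqp4, S100b, Aldh1l1, Gja1, Slc1a2 and Aldoc. They were chosen by name, and all 7 were found among the 21887 protein-coding genes that RefSeq lists for GRCm38. Each gene was examined over its annotated span with 10 kb on either side, in 13 lists of enriched regions, called islands, from chromatin immunoprecipitation and sequencing (ChIP-seq). The 7 windows held 98 of the 213103 islands, of which 50 were in the wild-type lists of 6 histone marks, 44 in the Setd5+/- lists and 4 in the SETD5-V5 list.

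The cells were neural stem cells grown as neurospheres with bFGF and EGF, derived at E14.5 from mouse telencephalic cortex, and then plated on Matrigel before fixation. Wild-type and Setd5+/- cells each gave 1 library for H3K4me3, H3K27ac, H3K4me1, H3K27me3, H3K36me2 and H3K36me3. SETD5-V5 was precipitated from wild-type cells in 1 further library. The labels do not give the Setd5 allele, the number of embryos or lines, or how the V5-tagged protein was expressed. With 1 library per group there was no replicate check, so the values describe these libraries and carry no p-value. Reads inside islands ran from 1019278 to 5093126 per library. In each pair of values below, the first is wild type and the second Setd5+/-, which is also called heterozygous. Where an island was called in 1 genotype, the reads in the other are unknown and no fold is given.

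As background, H3K4me3 marks the starts of genes that are active or ready for use, and H3K27ac marks active promoters and enhancers. H3K4me1 is spread over enhancers, H3K36me3 over the bodies of transcribed genes, and H3K27me3 is the repressive mark of Polycomb. Cortical progenitors make neurons first and astrocytes later, when cytokines acting through STAT3, Notch, BMP and the NFI factors turn on astrocyte genes. Radial glia, the progenitors of the cortex, already use some of these genes, such as Gja1, so their activity alone does not define an astrocyte.

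The 5 promoters printed here are those of the members with a start listed at or near the outer end of the span. H3K4me3 at these starts ran from very dense to none, and Aldh1l1 among them was marked in wild type only. Each printed sequence is the 250 bases before a start listed by RefSeq for GRCm38.p6, 5′ to 3′ along the gene. For Aldh1l1 that start is 90550793, just inside the gene span, and for the other 4 it is the outer end of the span.
Gja1, chr10:56377050-56377299, plus strand: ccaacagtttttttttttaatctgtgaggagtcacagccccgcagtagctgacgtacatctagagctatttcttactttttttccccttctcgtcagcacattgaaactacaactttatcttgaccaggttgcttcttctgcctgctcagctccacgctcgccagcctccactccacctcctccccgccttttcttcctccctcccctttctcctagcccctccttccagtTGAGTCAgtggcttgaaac
Aldoc, chr11:78322823-78323072, plus strand: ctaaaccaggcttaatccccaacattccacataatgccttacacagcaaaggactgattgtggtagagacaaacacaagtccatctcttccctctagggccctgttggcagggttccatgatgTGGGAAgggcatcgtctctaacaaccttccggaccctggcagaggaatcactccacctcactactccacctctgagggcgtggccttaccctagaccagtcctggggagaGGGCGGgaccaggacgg
Aldh1l1, chr6:90550543-90550792, plus strand: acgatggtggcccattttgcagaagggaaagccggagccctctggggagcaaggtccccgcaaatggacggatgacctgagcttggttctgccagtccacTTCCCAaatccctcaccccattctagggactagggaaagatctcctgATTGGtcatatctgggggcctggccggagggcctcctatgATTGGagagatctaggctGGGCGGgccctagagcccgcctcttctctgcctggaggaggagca
S100b, chr10:76253586-76253835, plus strand: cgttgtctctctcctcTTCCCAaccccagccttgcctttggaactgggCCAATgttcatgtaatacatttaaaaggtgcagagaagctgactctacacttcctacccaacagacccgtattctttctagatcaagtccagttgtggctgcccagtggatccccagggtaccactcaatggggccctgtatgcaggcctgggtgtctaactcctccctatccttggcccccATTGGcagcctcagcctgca
Gfap, chr11:102897201-102897450, minus strand: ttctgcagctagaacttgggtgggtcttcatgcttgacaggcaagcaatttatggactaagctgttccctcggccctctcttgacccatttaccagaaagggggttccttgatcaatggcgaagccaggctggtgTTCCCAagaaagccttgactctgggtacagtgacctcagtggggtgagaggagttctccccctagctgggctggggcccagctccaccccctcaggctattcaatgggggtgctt
Capitals mark matches on either strand to the TATA box (TATAAA), the GC box (GGGCGG), the CCAAT box (CCAAT), the AP-1 site (TGANTCA), the STAT site (TTCCNGGAA), the RBPJ site of the Notch pathway (TGGGAA) and the palindromic NFI site. No matches overlapped in these 5 windows.

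CpG dinucleotides, which are dense at most housekeeping promoters, were below the median in all 5. Aldh1l1 had 7 in its 250 bases, Gja1 had 6, Aldoc had 5, and S100b and Gfap had 2 each, where the median over 21263 promoters was 10 with quartiles of 3 and 19. The RBPJ letters were found in Aldoc, Aldh1l1, S100b and Gfap, and in 20.9% of all promoters. The CCAAT letters occurred at 2 places each in Aldh1l1 and S100b, and 35.4% of all promoters held them. The GC box letters were in Aldoc and Aldh1l1 and in 42.6% of all promoters. Gja1 alone of the 5 held the AP-1 letters, from −19 to −13, which 6.13% of all promoters hold. The TATA letters (11.6% of all promoters), the STAT letters (0.95%) and the NFI letters (0.0329%) were in none of these 5 windows. Matches are descriptions of the letters only.

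**Figure D1:**
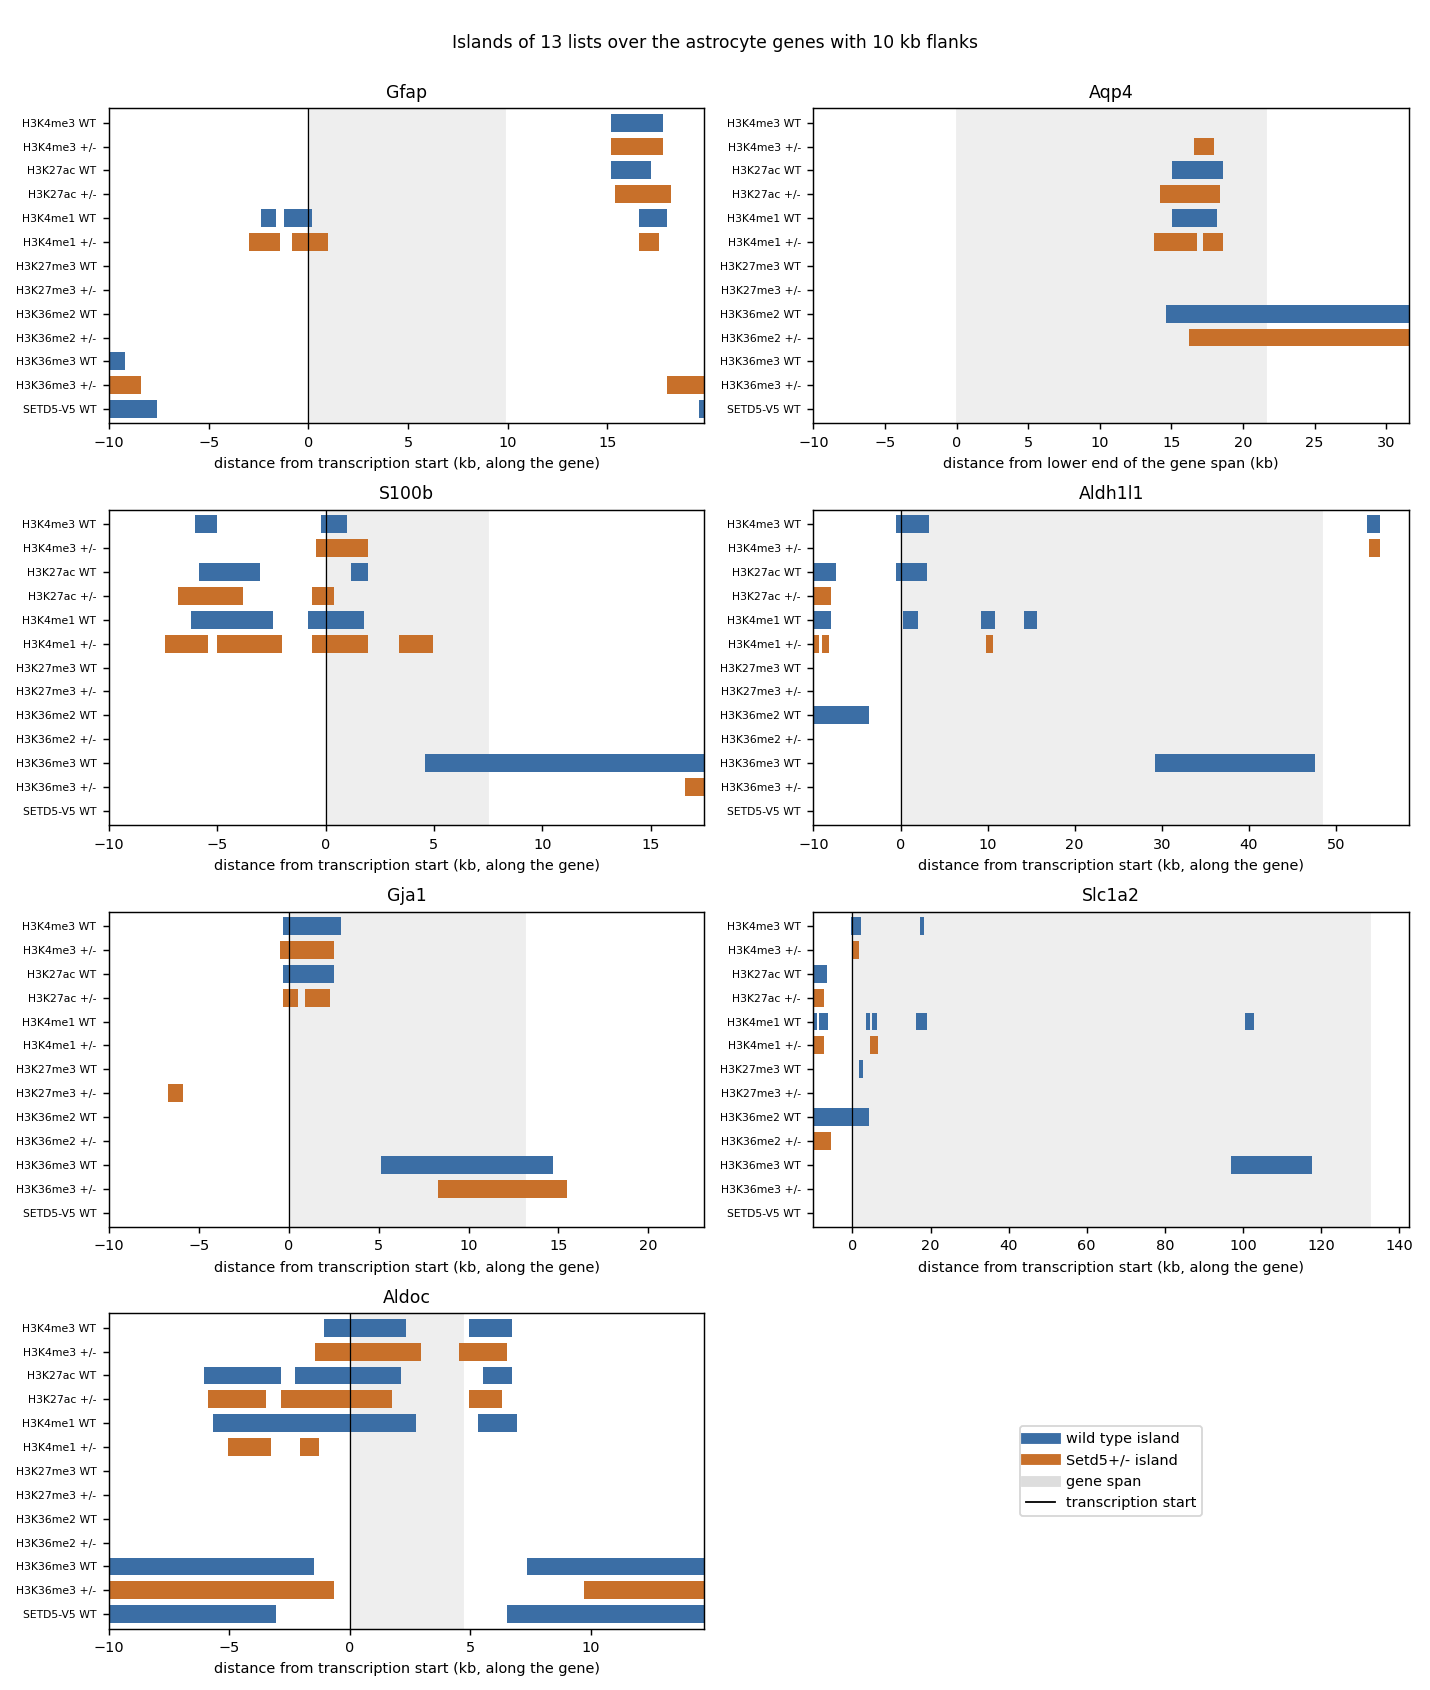
Islands of the 13 lists over each astrocyte gene, with distance along the gene in kb on the horizontal axis and 1 row per list, blue for wild type, orange for Setd5+/-, grey for the gene span. Aldh1l1 has blue bars without orange ones at its start and over its body.

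The marks at the starts of these genes were counted beside those of all genes, and for H3K4me3, H3K27ac and H3K27me3 the members lay within 1 gene of that background. A mark counted as present with an island within 1 kb of the start. H3K4me3 was at 5 of the 7 starts in wild type and at 4 in the heterozygous cells, against 58.1% and 56.6% of all protein-coding genes. H3K27ac was at 3 starts in each genotype, against 36% and 34.1% of all genes. H3K4me1 was at 4 and 2 starts, where all genes had 31.7% and 14.7%, and it was in wild type only at 2 of the 7 (Aldh1l1 and Aldoc), against 20.1% of all genes, and in the heterozygous cells only at 0, against 3.07%. H3K27me3 was at 0 of 7 starts in both, against 7.62% and 6.01%. The state formed by H3K4me3, H3K27ac and H3K27me3 differed between genotypes at 2 of 7 genes, S100b and Aldh1l1, and at 16.8% of all genes.

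Gja1 encodes connexin 43, the main gap junction protein of astrocytes, and it had the densest H3K4me3 of the set. The island over its start (chromosome 10, 56377001 to 56380200 in wild type) held 699 and 713 reads, or 218 and 238 reads per kb. These densities stood at percentiles 99 and 99.3 of their lists, whose medians were 78.3 and 81.4 reads per kb. H3K27ac at the start was a single wild-type island of 2.8 kb with 112 reads, and in the heterozygous library an island of 0.8 kb with 26 reads and one of 1.4 kb with 30 reads. No H3K4me1 island lay in the Gja1 window in either genotype. A heterozygous H3K27me3 island of 0.8 kb with 24 reads lay upstream, from −6.70 to −5.90 kb of the start.

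Aldoc encodes aldolase C, a glycolytic enzyme of the brain, and it carried H3K4me3 and H3K27ac at its start in both genotypes. H3K4me3 (chromosome 11, 78322001 to 78325400 in wild type) held 352 and 459 reads over 3.4 and 4.4 kb, or 104 reads per kb in each. H3K27ac held 167 and 125 reads over 4.4 and 4.6 kb. H3K4me1 differed in extent. The wild-type island was 8.4 kb long with 211 reads and ran across the start, while the heterozygous islands of 1.8 kb with 36 reads and 0.8 kb with 24 reads both ended upstream, at −3.27 and −1.27 kb. All 3 touch Spag5, a mitotic spindle gene whose span ends 0.616 kb before Aldoc, so they cannot be given to Aldoc alone. The H3K4me3 and H3K27ac islands over the Aldoc start also touch Spag5 in both genotypes.

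Slc1a2 encodes the transporter GLT-1, which clears glutamate from synapses. Its H3K4me3 island (chromosome 2, 102657801 to 102660400 in wild type) held 287 and 203 reads over 2.6 and 1.8 kb, or 110 and 113 reads per kb. In both genotypes this island reaches into the non-coding gene LOC115489466, which overlaps Slc1a2 from 102659308. H3K27ac was not within 1 kb of the Slc1a2 start in either genotype, and the nearest island ended upstream at −6.64 and −7.24 kb. A wild-type H3K27me3 island of 1 kb with 33 reads lay 1.76 to 2.76 kb inside the gene, and no heterozygous island was called there. With a window of 2.5 kb in place of 1 kb, Slc1a2 would carry H3K27me3 at its start in wild type.

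S100b, which encodes a calcium-binding protein, had less dense H3K4me3. The island (chromosome 10, 76253601 to 76254800 in wild type) held 51 and 115 reads over 1.2 and 2.4 kb, or 42.5 and 47.9 reads per kb, at percentiles 25 and 28.7 of the lists. H3K4me1 lay over the start in both, with 82 and 45 reads. H3K27ac lay over the S100b start in the heterozygous library only, with 28 reads, as at 4.14% of all genes. The wild-type H3K27ac island, with 26 reads, began 1.17 kb downstream and so just missed the window of 1 kb.

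Gfap encodes the intermediate filament that is most used to stain astrocytes. Over its span and within 1 kb of its start it had no island of H3K4me3, H3K27ac, H3K27me3, H3K36me2 or H3K36me3 in either genotype. H3K4me1 was the mark called there. The island across the start (chromosome 11, 102897001 to 102898400 in wild type) held 34 and 36 reads, and one upstream of it held 33 and 36 reads. In both genotypes both islands also touch the non-coding gene Gm34560, which lies 0.145 kb from the Gfap span. They cannot be given to Gfap alone. The deepest promoter islands in the Gfap window, H3K4me3 with 428 and 442 reads and H3K27ac with 60 and 71 reads, lay at least 15.20 kb downstream of the start at Ccdc103 and Eftud2.

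Aqp4 encodes the water channel of astrocyte end feet. Its strand is not in the tables used, so both ends of its span (chromosome 18, 15389394 to 15410982) were taken as possible starts, and no H3K4me3, H3K27ac or H3K4me1 island lay within 1 kb of either. H3K27ac and H3K4me1 lay together inside the span. H3K27ac held 106 and 87 reads over 3.6 and 4.2 kb (15404401 to 15408000 in wild type). H3K4me1 held 124 reads in a wild-type island of 3.2 kb, and 69 and 26 reads in the pair of heterozygous islands. A heterozygous H3K4me3 island (15406001 to 15407400) held 34 reads, at 24.3 reads per kb and percentile 1.44 of its list, and wild type had none there. The non-coding gene A830021F12Rik overlaps Aqp4 and ends at 15403752. The heterozygous H3K27ac island, which begins at 15403601, and H3K4me1 island, which begins at 15403201, reach into it, and the wild-type islands do not.

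**Figure D2:**
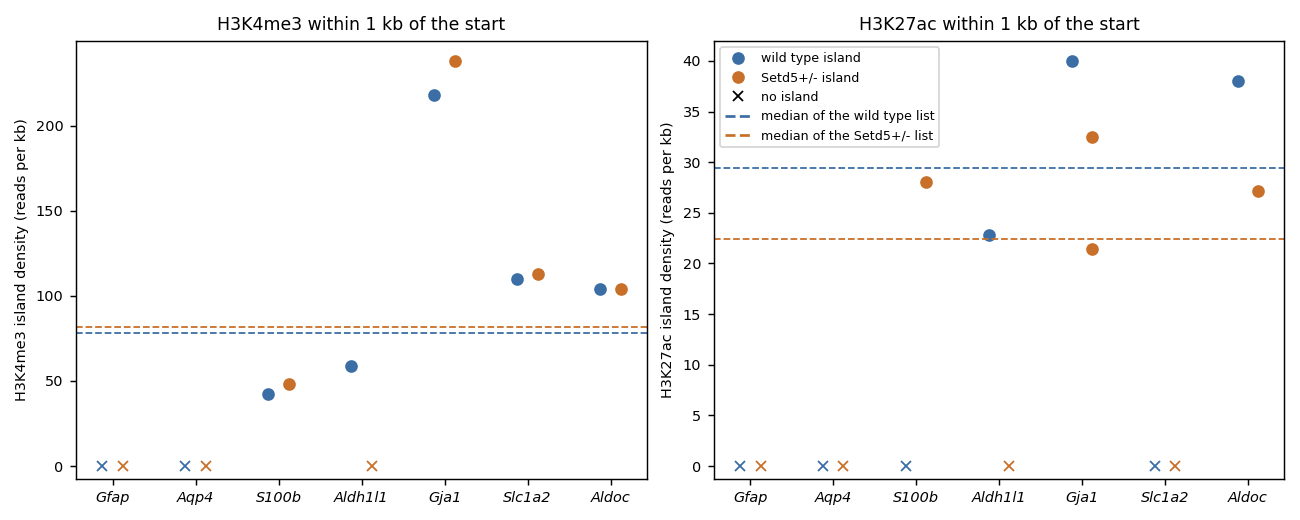
Density in reads per kb of the H3K4me3 (left) and H3K27ac (right) islands within 1 kb of each start, 1 point per island, with crosses at 0 where none was called and dashed lines at the list medians. Gja1 has the densest H3K4me3 at 218 and 238 reads per kb, and Aldh1l1 has an island in wild type only.

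Aldh1l1 encodes a folate enzyme and is widely used to label astrocytes, and it was the 1 member to lose every promoter mark it had in wild type. At its start, wild type had H3K4me3 (chromosome 6, 90550201 to 90554000) with 224 reads over 3.8 kb, H3K27ac with 82 reads over 3.6 kb and H3K4me1 with 46 reads over 1.8 kb. The heterozygous lists had none of the 3 there. In density the 3 wild-type islands stood at percentiles 38.8, 11.4 and 23.2 of their lists. H3K36me3 covered 18.4 kb of the gene (90580001 to 90598400) with 177 reads in wild type, and the heterozygous list had no island over it. An H3K36me2 island of 13.6 kb with 202 reads lay upstream, from −17.17 to −3.57 kb, in wild type only.

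Few H3K4me3 islands with as many reads as that of Aldh1l1 lacked a partner. The Aldh1l1 island spread its 224 reads over 3.8 kb, at 58.9 reads per kb, below the list median of 78.3. The share without a partner was not computed by density. Of 22767 wild-type islands, 2618 (11.5%) were overlapped by no heterozygous island, and these had a median of 30 reads against 126 for all. Of the 8174 with at least 224 reads, 3 (0.0367%) had no partner. Beside Aldh1l1 they were at Lrrtm4, a synaptic adhesion gene on chromosome 6, with 254 reads, and at Fndc3c1 on chromosome X, with 258 reads. Aldh1l1 lies on chromosome 6 too. With 1 library per genotype, a difference between the cultures cannot be told apart from one of Setd5 genotype. H3K4me3 at the start in wild type only was found at 2.32% of all genes, H3K27ac in wild type only at 6.03%, and both together at 14 genes (0.064%). Aldh1l1 was the 1 gene of those (0.00457% of all) whose H3K36me3 also went from at least 25% to 0%. With stricter islands Aldh1l1 had neither H3K27ac at the start nor H3K36me3 in wild type, so both combinations were lost and the H3K4me3 difference alone was left. The depth limit, the combination and the names Lrrtm4 and Fndc3c1 were chosen after the values were seen.

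Islands on either side of the Aldh1l1 start were still called in the heterozygous lists. An upstream H3K27ac island, from −12.57 to −7.37 kb in wild type, held 174 and 86 reads. H3K4me1 at the same place held 104 reads in wild type and 27 and 24 in the pair of heterozygous islands. Inside Aldh1l1, an H3K4me1 island at 9.23 to 10.83 kb held 38 and 26 reads, and one at 14.23 to 15.63 kb, with 46 reads, was called in wild type only. Slc41a3, a magnesium transporter gene that begins 5.56 kb beyond Aldh1l1, had H3K4me3 at its start with 94 and 116 reads.

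**Figure D3:**
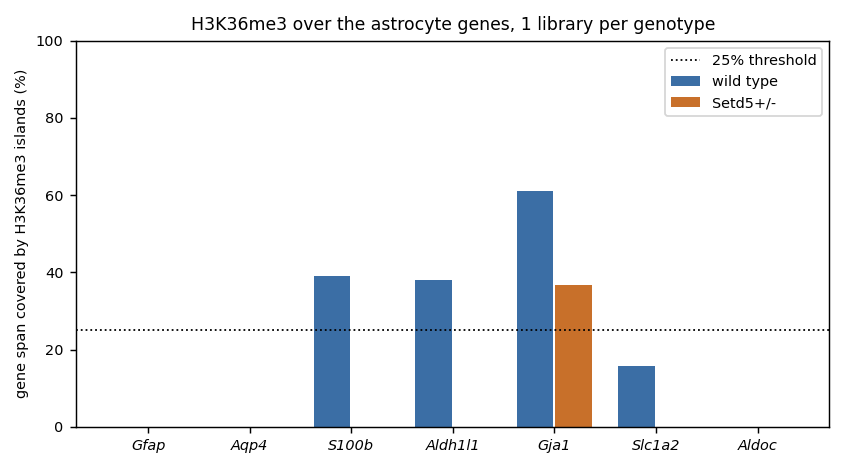
Percent of each gene span covered by H3K36me3 islands in wild type (blue) and Setd5+/- cells (orange), 1 library each, with the 25% threshold dotted. S100b, Aldh1l1 and Slc1a2 have a blue bar and no orange one, and Gja1 has both.

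H3K36me3, the mark of transcribed bodies, covered less of each of the 4 members that carried it in wild type. Coverage of Gja1 was 61.1% and 36.7%. It was 39% and 0% for S100b, 38% and 0% for Aldh1l1, and 15.7% and 0% for Slc1a2. Gfap, Aqp4 and Aldoc had 0% in both genotypes. Any coverage was found at 4 and 1 of the 7 genes, against 35% and 36.2% of all genes. At least 25% was covered in 3 and 1 of the 7, against 29.3% and 30.3%, and S100b and Aldh1l1 passed that threshold in wild type only, as 3.17% of all genes did. The median of the 7 was 15.7% and 0%, and that of all genes 0% in both.

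These falls stand beside falls at many genes. Of the 7671 genes with any H3K36me3 in wild type, 53.8% had a lower percent in the heterozygous list and 9.48% had none, as 3 of the 4 members did. The wild-type islands held 9.62 reads per kb at Aldh1l1, 10.8 at Slc1a2, 11 at S100b and 12 at Gja1, at percentiles 10.8, 31.5, 35.1 and 54.1 of the list. Of the 4658 wild-type islands with at most 12 reads per kb, 15.9% had no heterozygous partner, against 4.45% of the 3731 denser ones. The part of island density in the members' losses was not tested.

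Not all of these islands belonged to the member alone. The wild-type H3K36me3 island at S100b was 44.8 kb long, with 2.92 kb at the far end of S100b and the rest running towards and into Dip2a, a gene 1.72 kb away. The heterozygous island there began 16.57 kb from the S100b start and so lay outside the gene. At Slc1a2, a gene of 133 kb, the wild-type island of 20.8 kb with 225 reads lay 96.96 to 117.76 kb from the start. At Gja1 the island held 115 and 135 reads over 9.6 and 7.2 kb, or 12 and 18.8 reads per kb. These densities stood at percentiles 54.1 and 77.5 of their lists, so coverage of Gja1 was lower while density was not. Aldoc itself had no H3K36me3, while Spag5 and Pigs on either side had it in both genotypes.

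H3K36me2 was called over few members. It covered 32.3% and 24.9% of Aqp4, on either side of the 25% threshold, from islands of 416 and 306 reads that ran beyond the gene. At Slc1a2 it covered 3.14% and 0%, and the heterozygous island of 240 reads ended at −5.44 kb. At least 25% was thus covered in 1 and 0 of the 7 genes, against 1.1% and 3.07% of all genes, and any part in 2 and 1, against 4.81% and 5.41%. SETD5-V5 lay over 0 of the 7 genes, against 22.3% of all genes. Its 4 islands in the windows were over the neighbours Eftud2 and Kif18b of Gfap, with 256 and 267 reads, and over Spag5 and Pigs beside Aldoc, with 292 and 225 reads.

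H3K4me1 or H3K27ac away from the start was called in the window of each member, though at Gja1 it was the tail of the promoter islands. Distal H3K4me1 or H3K27ac, counted over the span and its flanks without 1 kb on each side of the start, was present at 7 of 7 genes in each genotype, against 61.5% and 54.9% of all genes. With 2.5 kb left out on each side of the start it was present at 6 of 7 in each, and Gja1, which had no H3K4me1, had 0.00 kb in both. The median covered length was 4.76 and 4.8 kb, beside 1.2 and 0.564 kb for all genes. The 7 genes had a median length of 13.1 kb, and all genes 17.2 kb.

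Distal coverage was lower in the heterozygous lists at 4 members and higher at 3. Slc1a2 had 11 and 4.8 kb, Aldh1l1 7.67 and 2.83 kb, Aldoc 8.4 and 6.6 kb, and Gja1 1.5 and 1.3 kb. S100b had 4.76 and 7.96 kb, Aqp4 3.6 and 4.8 kb, and Gfap 3.8 and 4.4 kb. The Gfap lengths included islands at the start of Ccdc103, without which they were 1.00 and 1.60 kb. Those of Aldoc included islands at the start of Pigs, without which they were 6.80 and 5.20 kb. Of all genes with any in wild type, 66.1% had less in the heterozygous lists. The sizes of these differences depended on the islands and windows used. At equal covered length of both genotypes the Slc1a2 difference went from −6.16 to −1.16 kb and that of Aldoc from −1.80 to −0.60 kb. With stricter islands Aldh1l1 went from −4.83 to −1.20 kb and S100b from 3.20 to −1.16 kb. With 20 kb flanks Aldoc turned to 2.00 kb and Aqp4 went from 1.20 to 0.20 kb, with 5 kb flanks S100b had 2.00 kb, and with 2.5 kb around the start left out Aldoc had −1.03 kb.

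At Slc1a2 distal H3K4me1 covered 10.4 and 4.8 kb. At equal covered length, which drops the least dense wild-type H3K4me1 islands, both marks together covered 5.96 and 4.80 kb. Wild-type H3K4me1 islands at 16.36 to 18.96 kb, with 66 reads, and at 100.56 to 102.76 kb, with 72 reads, had no heterozygous partner. Upstream of Slc1a2 both marks were called in both genotypes, H3K27ac with 110 and 47 reads and H3K4me1 with 136 and 74. Upstream of S100b, H3K27ac held 68 and 50 reads and H3K4me1 103 and 93. A further H3K4me1 island inside S100b, with 30 reads, was called in the heterozygous list only.

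**Figure D4:**
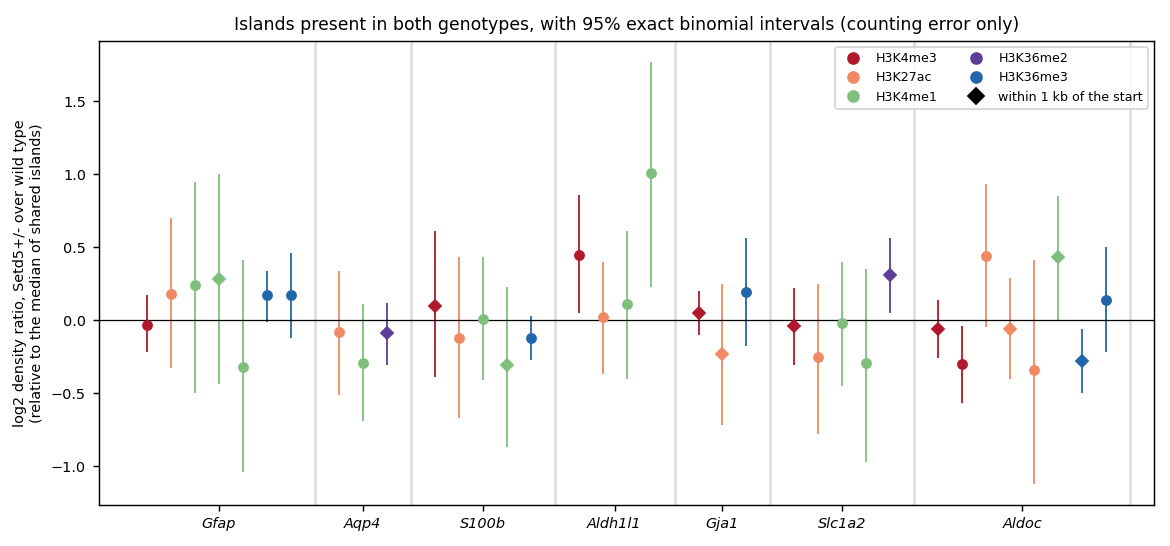
Log2 ratio of island density, Setd5+/- over wild type, at the 35 joined regions with islands in both genotypes, relative to the median of shared islands of each mark. Bars are 95% exact binomial intervals for counting error, and diamonds are regions within 1 kb of the start. The H3K4me3 diamonds lie between −0.06 and 0.10, and 2 intervals lie below 0 and 3 above it.

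Where both genotypes had an island at a start, the intervals of all 4 H3K4me3 ratios took in 0 under both scalings, and those of H3K27ac under 1 of them at Gja1. Densities were compared as the log2 ratio of reads per kb, heterozygous over wild type, relative to the median over islands of that mark shared outside chromosomes 1, 4, 15, X and Y, which hold 0 of the 7 genes. Each density uses the island width called in its own library, so a gain or loss of extent is not measured by the ratio. Intervals are exact binomial 95% intervals that take these widths as fixed. At the S100b start H3K4me3 held 51 and 115 reads over 1.2 and 2.4 kb, and at the Slc1a2 start 287 and 203 reads over 2.6 and 1.8 kb. H3K4me3 at the start had a ratio of 0.05 (−0.10 to 0.20) at Gja1, −0.04 (−0.31 to 0.22) at Slc1a2, −0.06 (−0.26 to 0.14) at Aldoc and 0.10 (−0.39 to 0.61) at S100b. With scaling to total island reads the Gja1 ratio turned to −0.01, and the other 3 kept their sign. H3K27ac at the start had −0.23 (−0.72 to 0.25) at Gja1 and −0.06 (−0.40 to 0.29) at Aldoc. With scaling to total island reads these were −0.49 (−0.98 to −0.01) and −0.32 (−0.67 to 0.02).

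Overlapping islands of both genotypes were joined, and 35 joined regions, called shared islands here, reached the windows. For H3K36me3 some reads came from outside them. The 411 wild-type reads at Eftud2 beside Gfap were in an island outside the window. The 670 at S100b were those of 2 islands, of which the one in the window held 493. Of the 35 shared islands, 18 had a lower density in the heterozygous library, and 20 with scaling to total reads. The first scaling puts the median of shared islands at 0, so a count near the middle of 35 says nothing about these genes. With scaling to total reads 7 intervals lay below 0 and 2 above it. The share of all shared islands whose intervals leave out 0 was not computed under either scaling. Relative to shared islands, intervals lay below 0 at 2, the H3K4me3 island of Pigs at −0.30 (−0.57 to −0.04) and the H3K36me3 island of Spag5 at −0.28 (−0.50 to −0.06), both neighbours of Aldoc. Intervals lay above 0 at 3. H3K4me3 at Slc41a3, beside Aldh1l1, had 0.45 (0.05 to 0.86), and 0.40 (−0.01 to 0.80) with scaling to total reads. H3K4me1 inside Aldh1l1 had 1.01 (0.23 to 1.77), from 38 and 26 reads in islands of 1.6 and 0.8 kb. H3K36me2 at Slc1a2 had 0.31 (0.05 to 0.56), which turned to −0.67 with scaling to total reads.

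Further genes of astrocytes were set beside the members. In a list of 28, H3K4me3 was at 17 starts in each genotype, with 0 in 1 genotype only, and H3K36me3 covered at least 25% of 13 and 14 genes. All genes had H3K4me3 at 58.1% and 56.6% of starts and such H3K36me3 at 29.3% and 30.3%. H3K27ac was at 14 starts in each, in wild type only at Apoe, a lipid carrier gene, Ndrg2 and Dio2, whose enzyme activates thyroid hormone, and in the heterozygous list only at Ntsr2, Ttyh1 and Mfge8. All genes had H3K27ac at 36% and 34.1% of starts, in wild type only at 6.03% and in the heterozygous list only at 4.14%. The glutamate transporter gene Slc1a3 was covered by H3K36me3 over 95.8% and 94.3%, the glial adhesion gene Hepacam over 92.5% and 38.4%, and Acsbg1 over 84.1% and 77%. Of this list, 5 genes lie on chromosomes 1, 4, 15, X or Y, Slc1a3 among them.

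The regulators that act on astrocyte genes were listed as 27 genes of the Notch, JAK-STAT, BMP and NFI routes. H3K4me3 was at 22 and 23 of their starts, against 58.1% and 56.6% of all genes. H3K36me3 covered at least 25% of 16 in each genotype, against 29.3% and 30.3% of all genes. Stat3, the cytokine effector, was covered over 90.2% and 94.7%, the kinase gene Jak2 over 89.2% and 81.4%, and Notch1 over 81.9% and 92.3%. Cntfr, a receptor gene for ciliary neurotrophic factor, had H3K4me3 in the heterozygous list only, as did 0.8% of all genes. H3K27ac was in wild type only at the BMP receptor gene Bmpr1b, against 6.03% of all genes. It was in the heterozygous list only at Id1 and Nfia, against 4.14% of all genes. Cntfr and Nfia lie on chromosome 4, which was left out of the scaling above. Whether its copy number differed between the genotypes was not tested here.

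**Figure D5:**
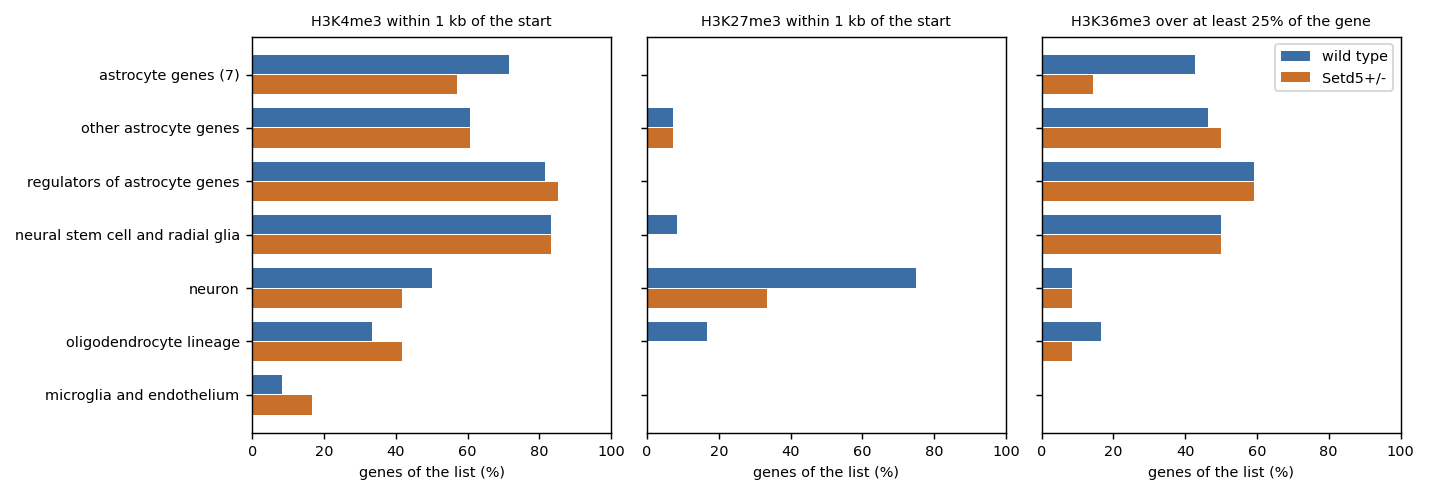
Percent of the genes of each list with H3K4me3 at the start (left), H3K27me3 at the start (middle) and H3K36me3 over at least 25% of the gene (right) in wild type and Setd5+/- cells. The 7 astrocyte genes, the regulators and the genes of microglia and endothelium have no H3K27me3 at the start in either genotype. It is at 2 and 2 of the 28 other astrocyte genes and at 9 and 4 of the 12 neuronal genes. Of all genes, which are not drawn, 7.62% and 6.01% have it.

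Markers of other cells that the cultures could hold were examined in the same way. Among 12 genes of radial glia and neural stem cells, 10 had H3K4me3 at the start in each genotype, and H3K36me3 covered at least 25% of 6 in each, with a median of 33.8% and 23.9%. All genes had H3K4me3 at 58.1% and 56.6% of starts and such H3K36me3 at 29.3% and 30.3%. The 3 most covered in wild type were Vim with 98.9% and 89.5%, Egfr with 95.5% and 88.3%, and Notch1. Of 12 neuronal genes, 9 and 4 had H3K27me3 at the start, where the astrocyte genes had 0 and 0 and all genes 7.62% and 6.01%. The 28 other astrocyte genes had it at 2 and 2 starts. The 27 regulators and the genes of microglia and endothelium had 0 and 0, as the members did. The H3K27me3 lists as a whole covered 64.4 and 47.1 Mb. H3K4me3 was at 6 and 5 of the neuronal starts. Of 12 oligodendrocyte lineage genes 4 and 5 had H3K4me3, and of 12 genes of microglia and endothelium 1 and 2. H3K27ac was at 0 of the microglia and endothelium genes in both, against 36% and 34.1% of all genes. Islands measure neither RNA nor protein, and in a bulk library many weakly marked cells and a few strongly marked ones cannot be told apart.

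The genes whose islands looked most like those of a member were found from the mean absolute difference in covered percent of the 10 kb around the start, over the 13 lists. Nearest to Gja1 were Cldn34c1 and Lysmd1, each at 0.462 percentage points. Gse1 at 0.615 was nearest to Gfap, and S100a4 was 1 of 3 genes tied at 0.923. Suclg2 at 2.75 and Gpr176 at 2.8 were nearest to Slc1a2. Fbln2 at 3.72 was nearest to S100b, Hpdl at 4.03 and R3hcc1l at 4.11 to Aldh1l1, and Pigv at 6.06 and Fzd9 at 6.54 to Aldoc.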

How the data were processed

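The submitters' processing notes name FastQC, Bowtie2 2.2.3, SICER 1.1 and the build GRCm38 (mm10). The file headers give SICER a window of 800 bp with a gap of 2400 bp at an FDR of 0.01 for both H3K36 marks and SETD5-V5. Headers of the other 8 lists give no settings. Each deposited island has a whole number that no header names. From its values it was taken as the authors' counts of reads in the islands they called, with no normalisation recorded. The sources used here give neither library totals nor any use of the 3 inputs, so an island that was not called may still hold reads.

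Analysis used Python 3.11.15, numpy 2.4.6, scipy 1.17.1 and matplotlib 3.10.9. Spans came from RefSeq, and strand from its promoter sequences for 17492 of the genes. The start was the outer end of the span, and for 4395 genes without a strand either end served. Coverage is the percent of a span under islands. The members and lists were chosen with earlier results of these data known. Named genes were the members, list genes whose promoter marks differed between genotypes, the 3 of each list with most wild-type H3K36me3, and the 2 nearest in island pattern, though not all are printed. There were 15 planned and 2 added alternatives. The steps for covered length, marks at the start and distal length were tested on simulated islands planted at known genes. No such test covered the other steps. Intervals cover counting error alone, as PCR copies are not independent molecules.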

Additional observations from a re-analysis of the deposited data

How the results depend on the processing

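Of 81 alternative values of the 15 counts over the 7 genes, 6 moved by more than 1.5 times. With stricter islands, which leave out the 25% of each list with the fewest reads per kb, H3K4me1 was at the start of 1 gene in each genotype. At equal covered length of both genotypes it was at 1 in wild type. A window of 2.5 kb gave 1 gene, Slc1a2, with H3K27me3 in wild type. A threshold of 50% left H3K36me3 at 1 wild-type gene and 0 heterozygous ones. A further 110 alternative values covered single members and the counts over the 28 other astrocyte genes. Of these, 10 moved, all of them values of single members, among them 2 that changed sign. These were the distal difference at S100b, −1.16 kb with stricter islands, and at Aldoc, 2.00 kb with 20 kb flanks, and the cause was not tested. At Aldh1l1, stricter islands kept H3K4me3 in wild type only but dropped wild-type H3K27ac, H3K4me1 and H3K36me3, whose coverage was then 0% in both genotypes. Equal covered length kept H3K4me3, H3K27ac and 38% H3K36me3 in wild type only. Any listed start, and distal islands without those at starts of other genes, were alternatives chosen after seeing the data. No paired analysis was possible because each group has 1 library. Depth outside islands is unknown, so a weak mark cannot be told from an absent one.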
